A study of Rattus norvegicus with 2 samples.

Results

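The genes of the proteasome, the protease complex that degrades ubiquitin-tagged proteins, were followed in rat dental papilla cells, the mesenchymal cells of the tooth germ from which odontoblasts arise. Members were all genes on the array whose RefSeq accession gave a rat symbol of the Psma, Psmb, Psmc, Psmd, Psme, Psmf or Psmg series, or Pomp. This gave 47 of the 15164 symbols on the array, read by 52 of the 30359 probes with a usable spot. Psmb11, Psmd11, Psmg1 and Psmg3 were not matched to a probe and are not analysed here. Psmc3ip, which acts in meiotic recombination, and Psme3ip1, a binding partner of an activator, carry the pattern in their symbols without being subunits or chaperones, and were kept as a group of their own.

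Primary rat cells of postnatal day 1 to 3, used at passage 3 to 4, were cultured for 3 days in OS, a medium that induces odontogenic differentiation with dexamethasone (0.1 mM), β-glycerophosphate (10 mM) and ascorbic acid (0.2 mM) in α-MEM with 8% serum. The OS group received no melatonin (0 nM) and the OS+melatonin group received 10 nM melatonin in the same medium, so both groups carried dexamethasone and the mineralizing supplements. Each group was 1 one-colour Agilent array, so no value here has an error between cultures, no test between the groups was possible and no p-value is given. The sample titles carry a count without explanation, and it is not known here whether cells of several cultures were pooled for an array.

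A level below is the log2 processed signal relative to the array's 75th percentile, and a ratio is the level on the melatonin array minus that on the OS array (log2), also written as a fold. The 75th percentile was 428 brightness units without and 329 with melatonin, and no spot was saturated. A gene was measured if a probe was well above background on both arrays, which held for 8231 symbols (54.3%). Of all probes 55.3% passed this flag without and 48.4% with melatonin. The lowest level that passed was -4.37 without and -3.47 with melatonin. Passing on the OS array alone therefore need not mean a lower level with melatonin. Of the markers of dental papilla and mesenchyme all 14 on the array were measured, among them Msx1, Lhx8 and Pax9. The odontoblast genes Dspp, Dmp1 and Phex failed the background flag on both arrays. Bglap passed it without melatonin alone, though its level was -4.05 without and -3.78 with melatonin. The epithelial genes Epcam, Cdh1, Amelx, Ambn and Krt5 failed it on both arrays, and Krt14 passed it without melatonin alone. Endothelial markers (3 of 6 measured) had a median ratio of -0.087 and skeletal muscle markers (3 of 6) of -0.60, and their part in the values below was not tested.

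The proteasome is built from a barrel-shaped core particle, in which rings of alpha subunits gate the entrance and rings of beta subunits hold the proteolytic sites, and a regulatory particle that recognises, unfolds and feeds in the substrate. Interferons replace catalytic beta subunits by immunoproteasome forms and raise the activator PA28. Dedicated chaperones assemble the core and the base of the regulatory particle and leave the finished complex. When proteasome activity is short, the transcription factor Nfe2l1 is known to raise the genes of the complex together.

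Of the 47 members 45 were measured (95.7%). The other two were Psma8, an alpha subunit of male germ cells, and Psmb8, an immunoproteasome subunit. The median ratio of the measured members was 0.094, against 0.039 over all measured genes, and their SD across genes was 0.24, against 0.29. The order of these medians turned with normexp (0.076 for members, 0.090 for all genes) and without the filter on dim probes (0.094 and 0.16). Normexp is another background correction, fitted here once per array to the median spot signal less its local background, with 50 added. It thus also changed the signal used, and which of these steps moved a value was not tested. The ratio lay above 0 in 30 of 45 members, beside 57.6% of all measured genes. With a threshold of 0.32 on the log2 ratio, a signal 25% higher, 4 members were higher (8.89%), against 10.1% of all measured genes, and 0 members were lower, against 7.85%. The 4 were Psmg4, Psmb10, Psma2 and Psma1, each read by 1 usable spot. The remaining 41 lay within 0.32 either way, as did 82% of all measured genes. Psmg4 alone was at least 2-fold higher, where 0.255% of all measured genes were, and no member was at least 2-fold lower, where 0.705% were. With loess correction, which moved the shares of all genes past 0.32 to 8.05% higher and 9.62% lower, the same 4 members were higher and 0 lower. As a set, the proteasome genes thus lay near the middle of the profile, with a count of higher members close to the background share.

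**Figure D1:**
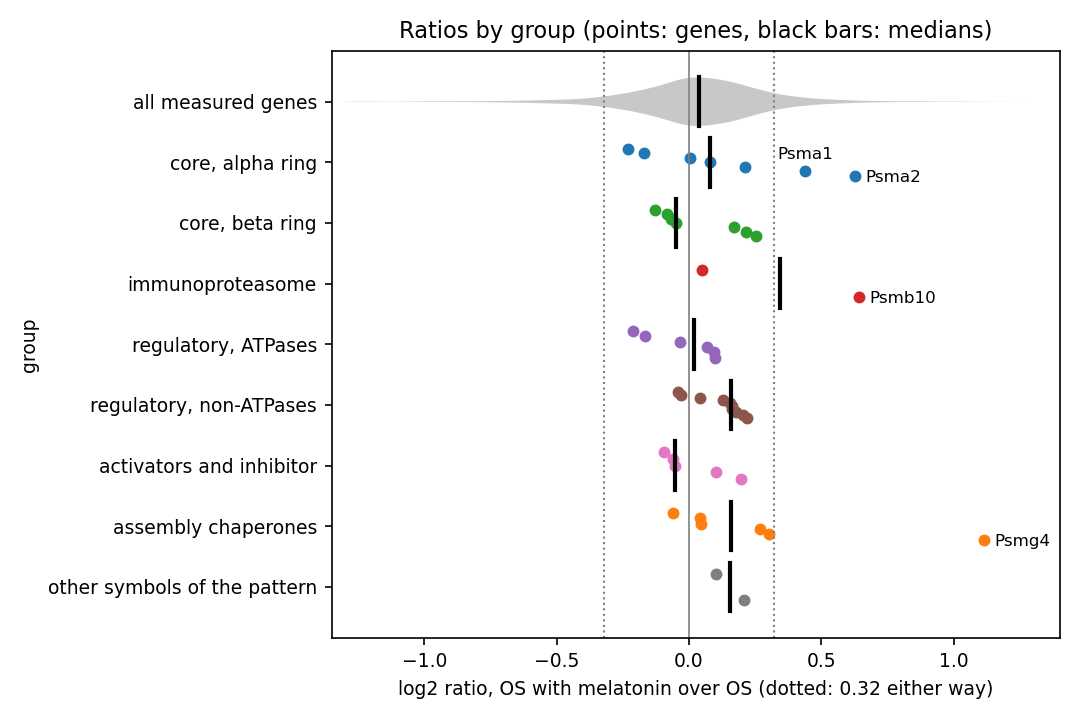
Log2 ratio of OS with melatonin over OS (x axis) for each measured proteasome gene (points) by group (y axis), with group medians as black bars, dotted lines at 0.32 either way and, in grey, the distribution of all measured genes within a log2 ratio of 1.3 either way. Psmg4, Psmb10, Psma2 and Psma1 lie to the right of the dotted line and no gene lies to the left of the other one.

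The spot-level error sets how far these values can be read. For member probes of 1 spot the scanner software's error estimates gave an error of the log2 ratio of 0.20 to 0.25 (median 0.20, 40 probes). For the 1033 measured probes with at least 8 usable spots the SD of the ratio between spots had a median of 0.16. Both describe the array alone. The scanner estimate was nearly constant (lowest 0.204, median 0.204) and is not a spread measured between spots. Across measured probes, the ratios of the 13533 probes of 1 spot had an SD of 0.38, against 0.15 for the 1033 with repeated spots. Why these differ was not tested, so an error of 0.20 may be too small for a value read by 1 spot. Of the 45 measured members 34 (75.6%) lay no farther than 0.20 from the median of all measured genes, as did 64.8% of those genes.

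The RefSeq promoter table of build GRCr8 held 43 of the 47 members, and the 250 bases before the start of each gene were searched on both strands for motifs of regulators known for proteasome genes. Shown are the windows of the 4 members past 0.32 and that of Psme2, whose interferon motif resembles that of Psmb10 while its ratio was 0.10. Motif matches are in capitals. The windows are chr17:30923374-30923623 for Psmg4, chr19:50743293-50743542 for Psmb10, chr17:55260442-55260691 for Psma2, chr1:177887858-177888107 for Psma1 and chr15:33052752-33053001 for Psme2, all on the minus strand and written 5′ to 3′ toward the gene.
Psmg4: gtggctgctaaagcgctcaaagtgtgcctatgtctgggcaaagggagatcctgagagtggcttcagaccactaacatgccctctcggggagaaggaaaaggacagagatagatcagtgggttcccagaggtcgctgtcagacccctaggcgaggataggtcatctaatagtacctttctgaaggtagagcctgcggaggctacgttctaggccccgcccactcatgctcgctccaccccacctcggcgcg
Psmb10: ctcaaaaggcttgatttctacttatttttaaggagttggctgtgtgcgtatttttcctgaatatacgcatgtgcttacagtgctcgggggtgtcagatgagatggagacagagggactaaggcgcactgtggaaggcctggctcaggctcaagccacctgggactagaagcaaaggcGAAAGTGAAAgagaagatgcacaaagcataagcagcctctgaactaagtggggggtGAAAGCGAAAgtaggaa
Psma2: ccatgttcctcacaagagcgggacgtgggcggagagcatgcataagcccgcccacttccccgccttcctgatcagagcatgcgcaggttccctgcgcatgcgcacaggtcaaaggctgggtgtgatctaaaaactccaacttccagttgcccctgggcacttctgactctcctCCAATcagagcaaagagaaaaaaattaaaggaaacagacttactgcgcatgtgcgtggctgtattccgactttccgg
Psma1: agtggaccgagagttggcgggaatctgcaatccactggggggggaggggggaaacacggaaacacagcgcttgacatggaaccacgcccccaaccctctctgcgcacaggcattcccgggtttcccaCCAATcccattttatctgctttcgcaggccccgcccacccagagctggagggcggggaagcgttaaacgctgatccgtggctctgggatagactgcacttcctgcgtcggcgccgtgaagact
Psme2: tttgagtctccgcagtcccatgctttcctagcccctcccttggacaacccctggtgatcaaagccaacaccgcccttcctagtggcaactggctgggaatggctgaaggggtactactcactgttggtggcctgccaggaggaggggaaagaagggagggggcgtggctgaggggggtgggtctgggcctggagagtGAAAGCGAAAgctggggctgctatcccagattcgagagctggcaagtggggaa

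The interferon-stimulated response element core (TTTC, any 2 bases, TTTC) occurred in 5 of 43 member windows (11.6%) and in 3.41% of all 33469 promoters. Psmb10 held 2 matches on the reverse strand, beginning 73 and 17 bases before the start, and Psme2 held 1, beginning 53 bases before it. Psma4, Psmb3 and Psmd7 held the others. The NF-Y box, CCAAT, occurred in 21 of 43 (48.8%) and in 34% of all promoters, among them those of Psma2 at 77 and Psma1 at 123 bases before the start. The antioxidant response element core, TGACNNNGC, to which Nfe2l1 and Nfe2l2 bind, occurred in 7 of 43 (16.3%) and in 10.1% of all promoters. The gamma-activated site, TTCNNNGAA, a palindrome that reads the same on both strands, occurred in 4 of 43 (9.3%) and in 7.67%. The Psmg4 window held none of the 4 motifs. Members with the antioxidant element had a median ratio of 0.042 (7 genes) and those without it 0.095 (34 genes), and with or without CCAAT the medians were 0.089 and 0.067. With or without the interferon element both medians were 0.081 (5 and 36 genes), and with or without the gamma-activated site they were -0.030 (3 genes) and 0.087 (38 genes). Member windows held a median of 56.8% G and C bases, against 51.2% over all promoters. Each member gave 1 window, while the promoters of all genes were not reduced to 1 per gene. The part of these differences in the motif shares was not tested. A match here is a description of letters, not a site shown to be bound.

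The assembly chaperones included Psmg4, whose value depended on which of its spots was used. Psmg4, which pairs with Psmg3 in a chaperone of alpha-ring assembly, had a level of 0.87 without and 1.99 with melatonin by 1 spot. That is 2.17-fold higher, a log2 ratio of 1.11 with a scanner error of 0.20. A second Psmg4 probe, also of 1 spot and well above background, was left out because the scanner software had marked that spot as an outlier on the melatonin array. Its levels were 2.41 and 2.35, a log2 ratio of -0.057 with an error of 0.20. The pair of probes for Psmg4 therefore disagreed, and with the marked spot kept the gene's ratio was 0.53. The RefSeq table also lists 3 like genes or pseudogenes of Psmg4 by name, and whether they contribute to either probe was not tested.

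Pomp, the maturation factor that guides beta-ring assembly and is the first substrate of the new core, was read by 10 spots. Its levels on the OS array ran from 2.95 to 3.44 with a median of 3.29, and on the melatonin array from 3.25 to 3.83 with a median of 3.50. The melatonin spots sat higher, with a small overlap of the ranges. The ratio was 0.27 (SD 0.22 and SE 0.070 over 10 spots), and all 10 spots lay above 0. Among the 1033 probes with repeated spots, 95.7% had a lower ratio than Pomp.

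Of the other chaperones, only Psmd5 had a ratio above that of Pomp, and none passed 0.32 either way. Psmd5, which holds the base ATPases during assembly, had levels of 0.73 and 1.03 (1.23-fold higher, log2 ratio 0.30 with an error of 0.20). Psmd10, also known as gankyrin, had levels of 0.21 and 0.25, a ratio of 0.043. Psmd9, another base chaperone, was read by 2 probes with ratios of 0.022 and 0.070. Psmg2, which pairs with Psmg1 in alpha-ring assembly, had levels of -1.02 and -1.08, a ratio of -0.062. Of the 6 measured chaperones 5 had a ratio above 0, with a median of 0.16, beside 57.6% and 0.039 among all measured genes. Only Psmg4 was higher past 0.32, where 10.1% of all measured genes were. Pomp was the one chaperone read by repeated spots.

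Among the immunoproteasome subunits 1 of the 2 measured genes passed 0.32. Psmb10, which replaces Psmb7 in the immunoproteasome, had a level of 2.85 without and 3.49 with melatonin. It was 1.56-fold higher by 1 spot, a log2 ratio of 0.64 with an error of 0.20. Psmb9, which replaces Psmb6, had levels of -2.19 and -2.14, a ratio of 0.048 with an error of 0.25. Psmb8, which replaces Psmb5, failed the background flag on both arrays. So of the 3 interferon-inducible catalytic subunits on the array, 1 was higher past 0.32, 1 was near equal and 1 gave no ratio. Psmb7, the constitutive counterpart of Psmb10, had levels of 1.19 and 1.06, a ratio of -0.13. The ratio of Psmb10 exceeded that of Psmb7 by 0.77, with an error of 0.29 from the scanner estimates of both spots. Psmb9 and Psmb6 differed by -0.21, with an error of 0.32.

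Other genes of the interferon and antigen-processing axis are set beside these values. Of PA28, Psme1 had levels of 3.44 and 3.38, a ratio of -0.052 by 1 spot. Psme2, its partner, had levels of 2.55 to 2.88 (median 2.81) on the OS array and 2.38 to 3.18 (median 2.92) on the melatonin array over 10 spots. The Psme2 spots of the melatonin array spanned those of the OS array, and the ratio was 0.10 (SD 0.22, 8 of 10 spots above 0). Psmb10 and Psme2 thus both carry the interferon element in the promoter window and had ratios of 0.64 and 0.10. Irf1, an interferon-inducible transcription factor, had a ratio of 0.17 over 1 probe. Tap2, a chain of the peptide transporter that feeds class I molecules, had a ratio of 0.080 and Tapbp, tapasin, -0.14. Tap1, the other chain, passed the background flag without melatonin alone, and its signal with melatonin was at least 1.44-fold lower. Neither the PA28 genes nor the transporter genes were higher past 0.32 beside Psmb10.

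Leukocytes carry immunoproteasomes, so their markers are given here. Of 14 macrophage and leukocyte markers on the array 7 were measured (median ratio -0.42, range -2.47 to 0.20). Of these 6 lay below 0, as did 3491 of all 8231 measured genes. The summed signal of all 14, dim ones included, was 3.95 times the 75th percentile without and 2.83 times with melatonin. This sum leans on single genes. Lyz2, the lowest ratio, had levels of -0.33 and -2.80 by 1 spot, while Cd14, the brightest marker, had levels of 0.83 and 0.76 (ratio -0.069). Ptprc, Adgre1, Itgam and Cd3e failed the background flag on both arrays, and Tyrobp and Cd74 passed it without melatonin alone. As a sum these markers were lower on the array where Psmb10 was higher, and their part in the immunoproteasome values was not tested. In RNA of a whole culture, fewer cells of a type and less RNA per cell cannot be told apart.

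The alpha ring of the core held the other higher members. Psma2 had a level of 2.28 without and 2.91 with melatonin, 1.54-fold higher (log2 ratio 0.63, error 0.20, 1 spot). Psma1 had levels of 2.20 and 2.64, 1.35-fold higher (ratio 0.44, error 0.20, 1 spot). With normexp correction, Psma1 had a ratio of 0.17 and Psma2 0.57. Psma5 was read by 10 spots, with levels of 3.42 to 3.62 (median 3.57) on the OS array and 3.63 to 4.00 (median 3.75) on the melatonin array. Of the 8 member probes with repeated spots, Psma5 was the one whose spots did not overlap between the arrays. All melatonin spots lay above all OS spots for 2.61% of the 1033 probes of that kind, and below them for 0.871%. Its ratio was 0.21 (1.16-fold higher, SD 0.10, SE 0.032), with all 10 spots above 0. Psma4 had a ratio of 0.081 and Psma3 of 0.0045. Psma6 and Psma7 lay on the other side, with levels of 3.91 and 3.68 for Psma6 (ratio -0.23, the lowest of all members) and 3.74 and 3.57 for Psma7 (-0.17). The RefSeq table lists 5 like genes or pseudogenes for Psma6 and 3 for Psma7, 2 for Psma2 and 0 for Psma1. Subunits that enter the same ring in equal number thus had ratios from -0.23 to 0.63, with a median of 0.081 over 7 genes.

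Psma8, the germ cell subunit that takes the place of Psma7 in testis, was read by 3 probes. The first was well above background on the melatonin array only, with a level of -3.25 against -5.90 on the OS array. Its lower bound was 2.17-fold higher, but the scanner error of its log2 ratio was 0.93. That level lay near the lowest signal called well above background on the melatonin array (-3.47). The other two Psma8 probes failed the flag on both arrays.

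In the constitutive beta ring no gene passed 0.32, although Psmb4 reached 0.39 under normexp. The catalytic subunits were each read by 1 spot with an error of 0.20. Psmb6, with caspase-like activity, had levels of 0.94 and 1.19 (ratio 0.25). Psmb7, with trypsin-like activity, had a ratio of -0.13, which turned to 0.045 under normexp. Psmb5, with chymotrypsin-like activity, had levels of 3.08 and 3.01 (-0.068). Among the structural subunits Psmb4 had a ratio of 0.21, Psmb3 of -0.049 and Psmb1 of -0.083. Psmb2, read by 10 spots, had levels of 3.45 to 3.66 (median 3.59) on the OS array and 3.56 to 4.02 (median 3.72) on the melatonin array. These ranges overlapped, and the ratio was 0.17 (SD 0.17, 7 of 10 spots above 0). The median of the 7 genes was -0.049, which turned to 0.045 under normexp. The RefSeq table lists 10 like genes or pseudogenes for Psmb3 and 3 for Psmb6, so those values are less certain.

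**Figure D2:**
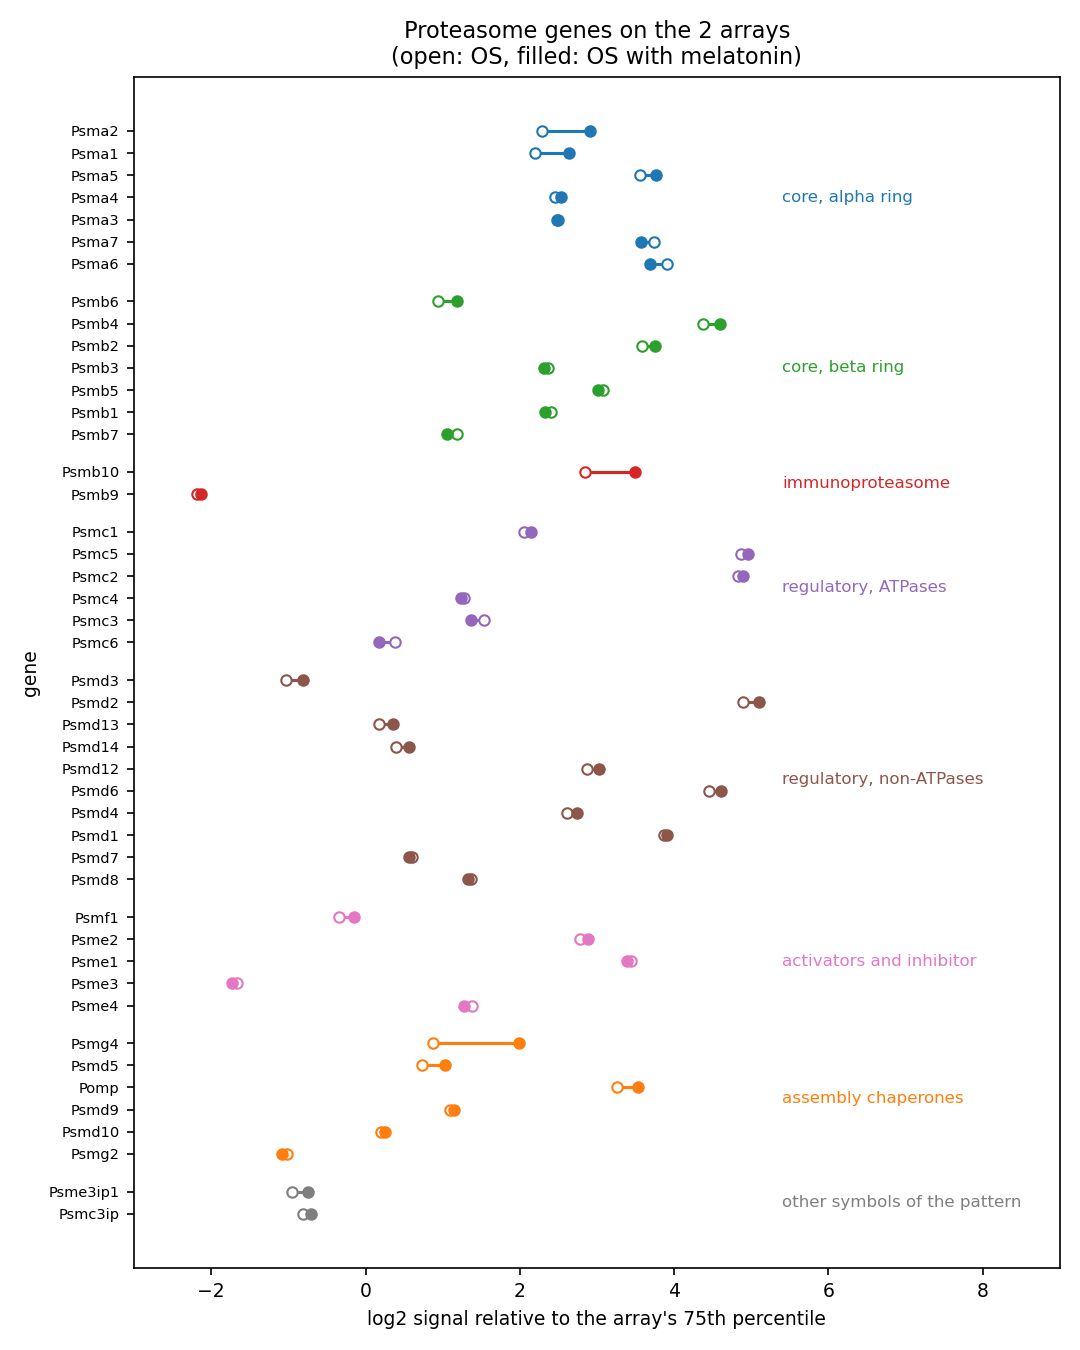
Level on the OS array (open circles) and on the melatonin array (filled circles) for each measured proteasome gene, as log2 signal relative to the array's 75th percentile (x axis), by group and ordered by ratio (y axis). The longest line is that of Psmg4, from 0.87 to 1.99, and most pairs of circles touch or nearly touch.

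The regulatory particle was the evenest large group. Its 16 measured genes had ratios from -0.21 to 0.22, with an SD of 0.13, and none passed 0.32 either way. The ATPases, the ring of motors that unfolds substrates, had a median of 0.017 over 6 genes. Psmc1, Psmc5 and Psmc2 had ratios of 0.097, 0.094 and 0.067. Psmc4 stood at -0.032 and Psmc3 at -0.17. Psmc6, the lowest of the ring, had levels of 0.38 and 0.17, a ratio of -0.21. The ATPase median turned to -0.0082 with loess correction and to -0.14 with normexp, so its sign is uncertain.

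The non-ATPase subunits of the regulatory particle leaned to one side. Of 10 measured genes 8 had a ratio above 0 and the median was 0.16, beside 57.6% above 0 and a median of 0.039 among all measured genes. Psmd3, a lid subunit, had levels of -1.03 and -0.82, the highest ratio of the group (0.22). Psmd2, the large scaffold that docks ubiquitin receptors and shuttles, had levels of 4.89 and 5.10 (0.21). Psmd14, the deubiquitinase that removes the chain before degradation, had levels of 0.39 and 0.56 (0.16), and Psmd4, an intrinsic ubiquitin receptor, 2.62 and 2.74 (0.13). Psmd13, a lid subunit, had a ratio of 0.18, and Psmd1, the other large scaffold, 0.042. Psmd7, the inactive partner of Psmd14, stood at -0.030 and Psmd8, a lid subunit, at -0.043, the lowest. Each of these ratios is smaller than, or about equal to, the error of 1 spot.

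A pair of lid genes was read with more precision. Psmd12 had 10 spots, with levels of 2.78 to 2.98 (median 2.86) on the OS array and 2.94 to 3.19 (median 3.02) on the melatonin array. Its ratio was 0.16 (1.12-fold higher, SD 0.11, SE 0.036), and 9 of 10 spots lay above 0. Psmd6 had 10 spots, with levels of 4.27 to 4.55 (median 4.46) and 4.37 to 4.94 (median 4.58), and a ratio of 0.15 (SD 0.19, SE 0.061, 9 of 10 spots above 0). The ranges of both arrays overlapped for each gene.

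Among the activators and the inhibitor no gene passed 0.32, although the inhibitor Psmf1 reached 0.36 under normexp. Psme4, also called PA200, had levels of 1.74 to 1.95 (median 1.83) on the OS array and 1.46 to 1.95 (median 1.66) on the melatonin array over the 10 spots of its first probe. Most melatonin spots sat lower, the ratio of this probe was -0.16 (SD 0.21, 7 of 10 spots below 0), and that of its other probe, of 1 spot, was -0.030. Psme3, the nuclear activator, had levels of -1.77 to -1.58 (median -1.65) and -1.86 to -1.61 (median -1.75) over 8 usable spots, which overlapped, and a ratio of -0.062 (SD 0.15). Psmf1, which inhibits the core in the test tube, had ratios of 0.12 and 0.27 by 2 probes of 1 spot each. The group median was -0.052, which turned to 0.070 under normexp and to 0.025 with genes below the lower quartile of signal left out. Of the symbols without a proteasome role, Psmc3ip had a ratio of 0.10 and Psme3ip1 of 0.21.

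The probes with repeated spots give the values least affected by single spots. Of 8 such members 6 had a mean ratio above 0, namely Pomp, Psma5, Psmb2, Psmd12, Psmd6 and Psme2. Psme3 and Psme4 lay below 0. Their median was 0.16, against 0.053 for all 1033 measured probes of that kind, of which 69.1% lay above 0. The SE over spots ranged from 0.032 to 0.071. Psma5, Psmb2, Psmd12 and Psmd6, subunits of the core and of the lid, lay close together at 0.21, 0.17, 0.16 and 0.15, that is 1.11-fold to 1.16-fold higher. Spots on 1 array share the same RNA, so their SE leaves out the spread between cultures.

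**Figure D3:**
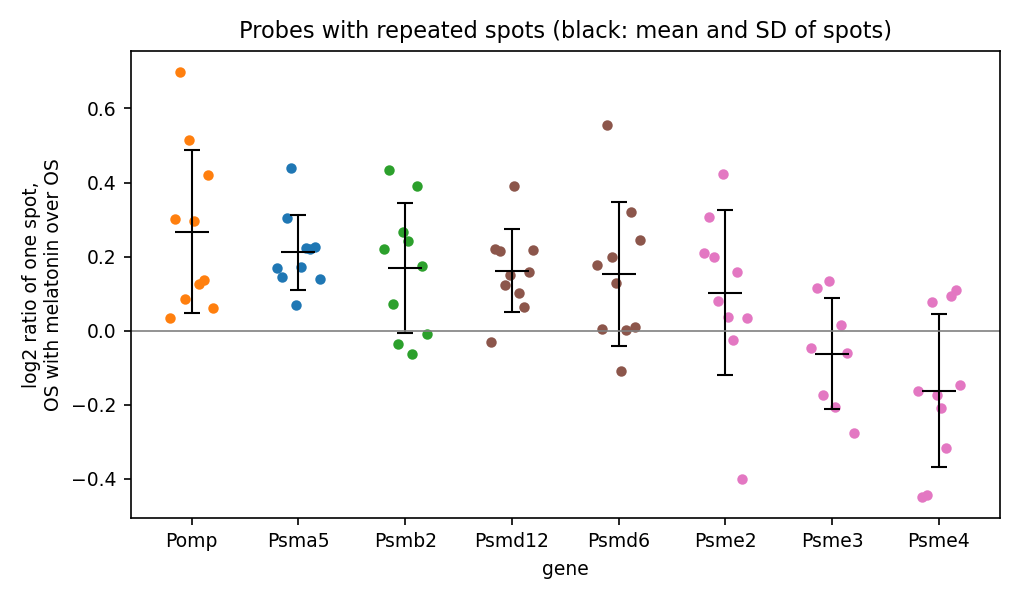
Log2 ratio of OS with melatonin over OS at each spot (y axis, points) for the 8 proteasome genes whose probe had at least 8 usable spots (x axis), with the mean and SD over spots in black. All 10 spots of Pomp and Psma5 lie above 0, and 7 of 10 spots of Psme4 lie below it.

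**Figure D4:**
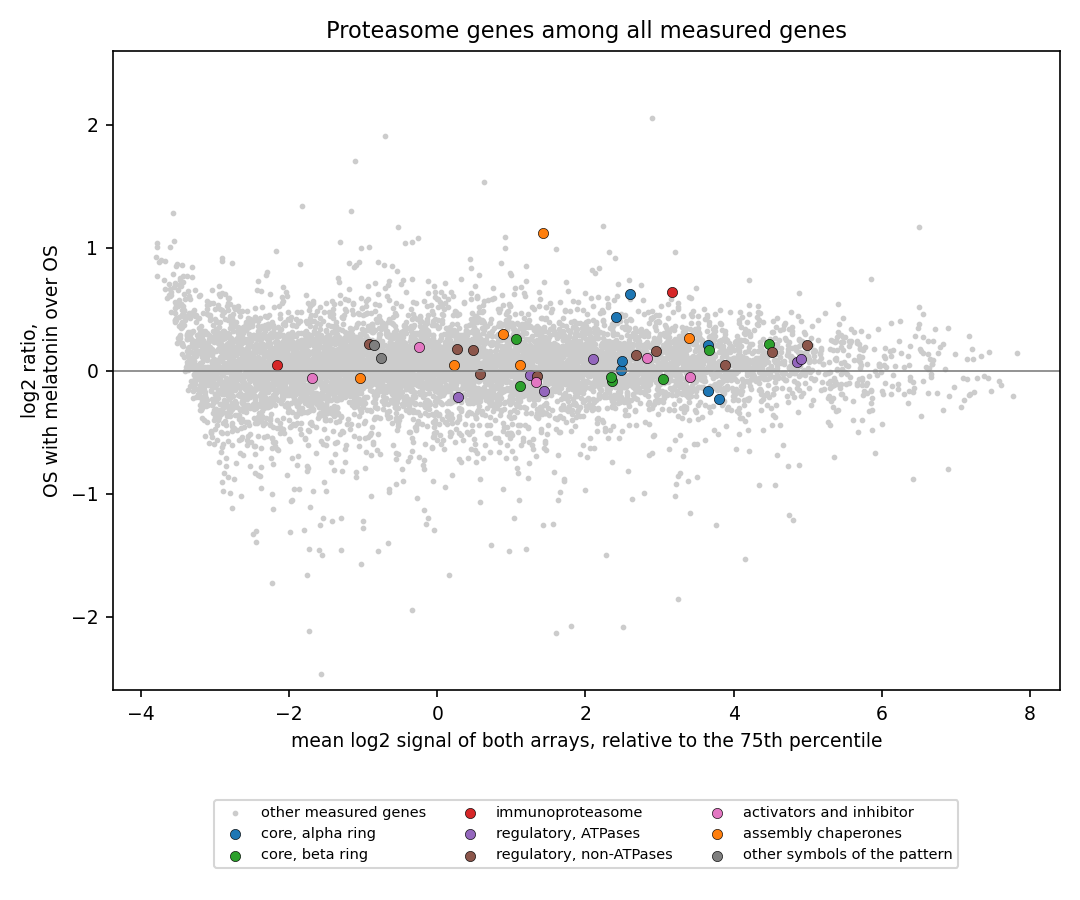
Log2 ratio of OS with melatonin over OS (y axis) against the mean level of both arrays (x axis) for the 45 measured proteasome genes (coloured by group) and all other measured genes (grey). The proteasome genes sit in the dense band around 0, with Psmg4 at 1.11, from its unmarked spot, as the highest.

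The other genes of the ubiquitin pathway lay as near to 0. Of 47 listed genes 40 were on the array and 38 were measured, with a median ratio of 0.060. The ratio lay above 0 in 23 of the 38, beside 57.6% of all measured genes. Past 0.32, 1 gene was higher and 2 were lower, beside 10.1% and 7.85% of all measured genes. The higher gene was Ubxn1, a p97 cofactor, with levels of 0.17 and 0.95 (1.71-fold, log2 ratio 0.78 by 1 spot). Ubqln4, a shuttle receptor, had levels of -0.65 and -1.11 (1.38-fold lower by 1 of its 2 probes). Rps27a, which encodes ubiquitin fused to a ribosomal protein, had 1.24-fold higher signal, just inside the threshold, by probes whose ratios were 0.052 and 0.58. It belongs to a family with many processed copies, so its value is uncertain. The polyubiquitin gene Ubb had a ratio of -0.063.

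The factors that bind the proteasome itself varied little. Adrm1, a ubiquitin receptor, had levels of -1.17 and -1.03 (ratio 0.14), Usp14, a deubiquitinase, had a ratio of 0.11, and the 7 measured genes of this group spanned -0.032 to 0.14. Nfe2l1, the transcription factor of the proteasome recovery response, had levels of 0.53 and 0.35, a ratio of -0.17 by 1 spot. Nfe2l2 had a ratio of 0.018, and Ngly1, which processes Nfe2l1, 0.20. Vcp, the p97 unfoldase, had a ratio of -0.041.

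**Figure D5:**
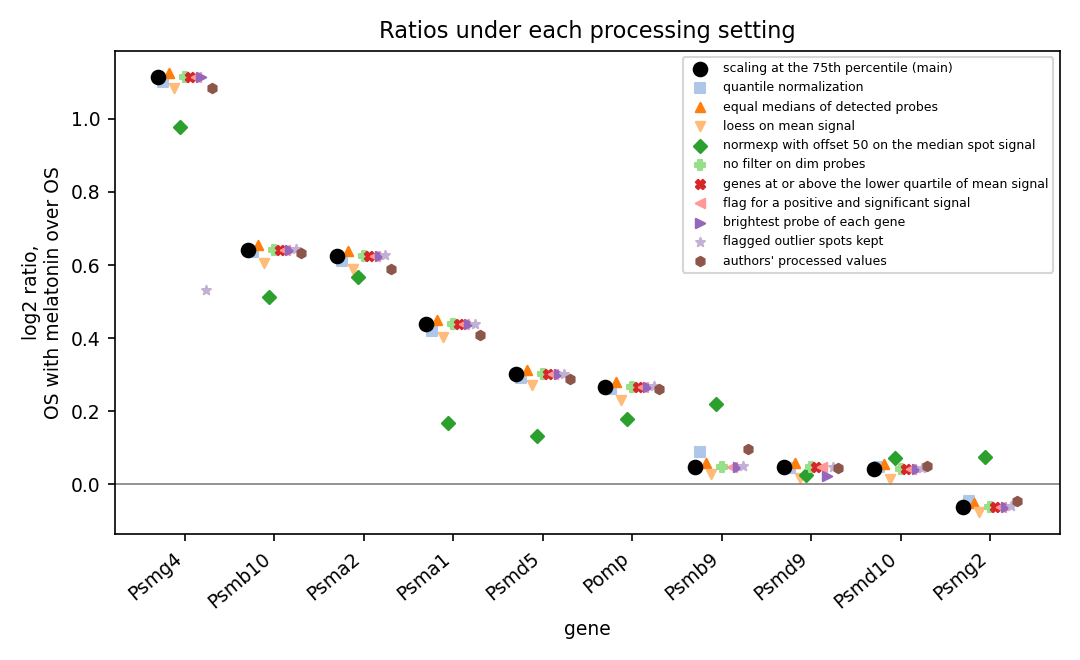
Log2 ratio of OS with melatonin over OS (y axis) for the assembly chaperones, the measured immunoproteasome subunits and the members past 0.32 (x axis), under the main scaling (black) and each of 10 other processing settings (coloured marks). Psmb10 and Psma2 stay between 0.51 and 0.65, while Psmg4 stands at 1.11 in the main setting and 0.53 with the spot marked as an outlier kept, and Psma1 at 0.44 and, under normexp, 0.17.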

How the data were processed

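Total RNA was labelled with Cy3 and hybridised to 1 one-colour array per group, per the labels. Per the file headers, Agilent Feature Extraction 11.0.1.1 gave the intensity of each spot of design 028282, background-subtracted and spatially detrended, and were not normalized between arrays. The deposited flags per spot (other values) served unchanged. A table of log2 values of both arrays was deposited by the authors with an unstated normalization. It matched the scanner signal (Pearson correlation across probes 0.9997 and 0.999), both columns had a median of 5.10, and it was used as an alternative.

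Here spots marked as outliers on either array were left out (937), log2 signals were scaled to each array's 75th percentile, spots were averaged per probe, and probes flagged as well above background on each array (at least 50% of their spots) were averaged per gene. Symbols came from RefSeq accessions in a GRCr8 table, which named 18000 of 30359 probes. The arrays' annotation names another build, so no array coordinates are given. Calculations used Python 3.11.15. The gene step was tested on simulated data.

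Members, lists and thresholds were chosen with earlier results of these data known. Values are given for all chaperones, immunoproteasome subunits and activators, members past the threshold, those with repeated spots or disagreeing probes, and the extremes of each group. Other members are added for completeness. For a gene above background on 1 array, a lower bound of the fold divides its brighter value by its dimmer value, the latter raised at least to the weakest signal flagged as well above background on that array. With 1 array per group no test was run, which limits the precision. Some genes of the lists are not reported here.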

Additional observations from a re-analysis of the deposited data

How the results depend on the processing

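No paired analysis was possible because each group has 1 array. Values moved with the settings as follows, and the cause was not tested unless the setting itself shows it. The constitutive beta ring median turned from -0.049 to 0.045 under normexp. The ATPase median turned from 0.017 to -0.0082 with loess correction and to -0.14 under normexp. The median of activators and inhibitor turned from -0.052 to 0.070 under normexp and to 0.025 above the lower quartile of signal, where 1 gene fewer was tested. The immunoproteasome median of 0.34 rests on 2 genes. It was 0.048 over 3 genes without any filter for dim probes or with the laxer flag for positive signal, and 0.64 with Psmb10 alone above the lower quartile. The count of members past a log2 ratio of 0.32 was 4 (3 at 1.5-fold, 6 under normexp, where Psmb4, Psmf1 and Psme3ip1 joined and Psma1 was left out), and 18 at 1.1-fold. The count lower was 0, but 4 at 1.1-fold, 1 under normexp (Psma7), and 1 (Psmb8, dim) without filter and with the laxer flag. The count past 2-fold was 1, and 0 under normexp and with marked outlier spots kept, where the ratio of Psmg4 was 0.53, and 2 without filter and with the laxer flag, where dim Psma8 joined. The 109 other comparisons of medians and counts kept their sign and stayed close, meaning a shift below the median SD between spots of 0.16 or a count within 1.5 times. The median of all members ran from 0.063 to 0.16, the upper end being that of members with repeated spots alone, a setting chosen after seeing the data, as was leaving out Psmc3ip and Psme3ip1. Of 228 comparisons for named genes 221 moved by less than 0.16. Without a filter the median of all genes shifted by 0.12. Psmb8 and 2 of 3 Psma8 probes were too dim on both arrays for a ratio.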
